A study of Homo sapiens and Mus musculus with 74 samples.

Results

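The polyamine genes described here are 9 mouse genes that make, break down or regulate putrescine, spermidine and spermine: Oaz1, Oaz2, Azin1, Odc1, Amd1, Sat1, Srm, Sms and Smox. They were taken from 22484 genes with a coding transcript in a table of reads per transcript. All 9 were found, with 67 listed transcripts among 142604, and each gene was followed through the transcript that encodes its longest protein. The values come from 30 of the 74 samples of a study of ribosomal protein L41 (RPL41), the smallest protein of the ribosome. The other samples were not analysed here.

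The mice were wild-type (WT) or lacked Rpl41 (Rpl41 KO, Rpl41-/-). The knockout was made by electroporation of C57BL/6J zygotes with Cas9 ribonucleoprotein and a guide RNA, and it is not restricted to a tissue. Kidneys and brains of male mice aged 10 weeks were used, with 3 libraries for each genotype, tissue and assay. Ribo-seq counts the stretches of mRNA that a single ribosome protects from RNase I, disome-seq (kidney alone) counts the longer stretches that a pair of stacked ribosomes protects, and RNA-seq counts fragments of poly(A)-selected RNA. The study calls the libraries of a group biological replicates, and the labels do not tie a library to an animal, so p-values measure the spread between these libraries.

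Polyamines are small positively charged molecules that bind RNA and that growing cells need for translation, and cells hold their level within narrow limits largely by controlling translation of the genes that handle them. Ribosomes that read an antizyme mRNA (Oaz1, Oaz2) must slip forward by a single nucleotide at an early stop codon to finish the protein, and high polyamine levels favour that slip; antizyme then carries ornithine decarboxylase (Odc1) to the proteasome, and antizyme inhibitor (Azin1) releases it by taking its place. The mRNAs of Azin1, Odc1 and Amd1 also hold short reading frames upstream of the main start codon (upstream open reading frames, uORFs). The frame of Amd1 is known for stalling ribosomes when polyamines are abundant.

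The frameshift sites of both antizymes are shown because the ribosome must skip a base there to make the full protein. The sequences are from the mouse genome (GRCm38.p6), on the plus strand at chr10:80828280-80828309 for Oaz1 and chr9:65686257-65686286 for Oaz2, both within coding exons, and the capitals mark the stop codon of the first frame, whose first base is the one skipped.
Oaz1: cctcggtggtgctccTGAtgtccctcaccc
Oaz2: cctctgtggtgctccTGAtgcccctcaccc
The skipped T lies at position 80828295 of chromosome 10 in Oaz1, after 68 of 227 codons, and at position 65686272 of chromosome 9 in Oaz2, after 32 of 189 codons.

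Short uORFs in the leaders of 4 members are shown because they are the stretches that ribosomes meet before the main coding sequence. They are from the GENCODE M21 transcripts on GRCm38, written in the direction of the mRNA, with the start and stop codons in capitals. Those of Azin1 lie at chr15:38514482-38514505 and chr15:38501507-38501536 on the minus strand, that of Odc1 at chr12:17544921-17544947 on the plus strand, that of Amd1 at chr10:40302155-40302175 and that of Sat1 at chrX:155216271-155216285, both on the minus strand.
Azin1, 7 codons: ATGatagggggttccatctccTAA
Azin1, 9 codons: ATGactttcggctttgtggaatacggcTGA
Odc1, 8 codons: ATGacgacgtgctcggcgtataagTAG
Amd1, 6 codons: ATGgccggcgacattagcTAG
Sat1, 4 codons: ATGgtgccagccTGA
The 9-codon frame of Azin1 ends 1 nucleotide before the main start codon, and the frame of Amd1 ends 296 nucleotides before it. The leader of Azin1 holds 3 AUG codons in 590 nucleotides, that of Odc1 2 in 489, that of Amd1 1 in 328, that of Sat1 2 in 177 and that of Sms 4 in 334. The leaders of Oaz1, Oaz2, Srm and Smox hold none. Of 20390 coding genes with a leader, 53.2% hold an AUG there, 45.6% hold a complete reading frame there, and the median leader has 164 nucleotides.

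The libraries held 84433838 to 123745890 counted reads for brain RNA-seq, 44998381 to 55077048 for kidney RNA-seq, 9498663 to 35881929 for brain Ribo-seq, 11036643 to 42452425 for kidney Ribo-seq and 1187636 to 3018963 for disome-seq, where a read that fits several transcripts counts for each. The targeted gene followed the labels in every assay: kidney RNA-seq held 3 to 8 reads of Rpl41 in KO and 3695 to 7502 in WT, and brain RNA-seq 6 to 12 and 8981 to 12199. The tissue labels held as well, since 6 kidney markers summed to 3853 to 4262 CPM (counts scaled by library size) in kidney RNA-seq and under 1 in brain RNA-seq, and 6 brain markers to 2287 to 3061 CPM in brain RNA-seq and 1.33 to 2.19 in kidney. RNA-seq coverage along the mRNA differed between libraries. Where isoforms allow it, reads of an isoform after the midpoint of the coding sequence were divided by those of an isoform before it. The median log2 ratio was 1.77, 2.11 and 1.20 in the WT kidney libraries and 1.94, 2.61 and 2.52 in the KO kidney libraries. Reads are not scaled by length, and such isoforms can hold leader, trailer or intron. The ratio thus compares libraries and gives no absolute 3′ lean. Tissues are mixtures of cells, and fewer cells of a type and less RNA per cell cannot be told apart.

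Reads of several members cannot be assigned with certainty, because reads that fit several places were kept. Of the coding sequence, the share of stretches of 25 nucleotides that another annotated gene also holds was 100% for Amd1 (almost all in its near-identical copy Amd2) and for Sms, 92.5% for Oaz1, 86.5% for Odc1, 70.0% for Oaz2, 43.9% for Sat1 and 27.1% for Srm. Azin1 and Smox shared none.

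WT kidney and WT brain differed widely in the levels of these genes. Odc1, which makes putrescine from ornithine in the first step, and Sat1, the acetyltransferase that marks spermidine and spermine for export or breakdown, were far higher in kidney, while Amd1, Sms and Smox were higher in brain. Levels are given as CPM scaled within each tissue and assay, and the differences come from a fit that scales both tissues together. Odc1 RNA was 280, 222 and 326 CPM in the kidney libraries against 23.4, 28.7 and 22.2 in brain, a log2 difference of 3.76 (SE 0.21, adjusted p = 1.54e-07, quasi-likelihood F-test of edgeR, adjusted by Benjamini and Hochberg's method). Sat1 RNA was 88.9, 83.7 and 70.1 CPM in kidney against 17.8, 16.9 and 12.5 in brain (log2 difference 2.66, SE 0.21, adjusted p = 1.6e-06). For both genes every kidney library lay above every brain library.

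Of the 9 members, 8 passed the edgeR test between WT kidney and WT brain at the RNA level, 2 higher and 6 lower in kidney, beside 64.1% of all transcripts tested. The 6 that were lower in kidney were the antizymes Oaz1 (log2 difference -1.04, SE 0.22) and Oaz2 (-0.81, SE 0.18), Amd1 (-2.39, SE 0.20), Srm (-0.64, SE 0.17), Sms (-2.21, SE 0.19) and Smox (-2.21, SE 0.21). Amd1 makes the aminopropyl donor, Srm and Sms use it to make spermidine and spermine, and Smox oxidises spermine back to spermidine. Azin1 did not pass (-0.18, SE 0.20, adjusted p = 0.462). In Ribo-seq 8 passed as well, beside 70.9% of all transcripts tested, with Odc1 (2.58, SE 0.25), Sat1 (2.61, SE 0.17) and Oaz1 (0.71, SE 0.12) higher in kidney and Oaz2 (-0.38, SE 0.14), Amd1 (-1.09, SE 0.13), Srm (-0.94, SE 0.15), Sms (-0.52, SE 0.14) and Smox (-2.18, SE 0.22) lower. The Oaz2 call was lost without WT brain Ribo-seq library 3 (adjusted p = 0.0849) and without WT kidney Ribo-seq library 2 (adjusted p = 0.128).

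Oaz1 differed in opposite directions at the RNA and footprint levels. Its RNA was 43.6, 43.0 and 27.7 CPM in kidney and 100, 107 and 81.0 in brain, while its footprints were 49.2, 44.9 and 49.3 CPM in kidney and 30.2, 34.7 and 30.3 in brain. Translation efficiency, footprints relative to RNA, was higher in kidney by a log2 difference of 1.76 (SE 0.27, adjusted p = 0.00018, edgeR's assay-by-tissue term). It was also higher in kidney for Sms (1.70, SE 0.25, adjusted p = 0.000121) and Amd1 (1.31, SE 0.25, adjusted p = 0.0012), and lower for Odc1 (-1.18, SE 0.34, adjusted p = 0.0239). These 4 of 9 stand beside 19.8% of all transcripts tested. The Odc1 call did not hold with library totals as the scaling (adjusted p = 0.0542) or with 1 transcript per gene (0.0676), nor without any of 5 WT libraries: brain Ribo-seq 2 (0.0664), brain RNA-seq 1 (0.0623) or 3 (0.0689), and kidney Ribo-seq 1 (0.0552) or kidney RNA-seq 1 (0.0508). Oaz2 (0.44, SE 0.24), Azin1 (0.20, SE 0.26), Sat1 (-0.04, SE 0.28), Srm (-0.29, SE 0.23) and Smox (0.02, SE 0.35) did not pass. RNA-seq coverage along the Oaz1 mRNA differed between the WT tissues. The ratio of its RNA reads after over before the frameshift site, described below, was 6.8, 15 and 8.1 in kidney. In brain that ratio was 3.7, 4.0 and 2.4. The part of this coverage in the Oaz1 tissue differences was not tested.

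**Figure D1:**
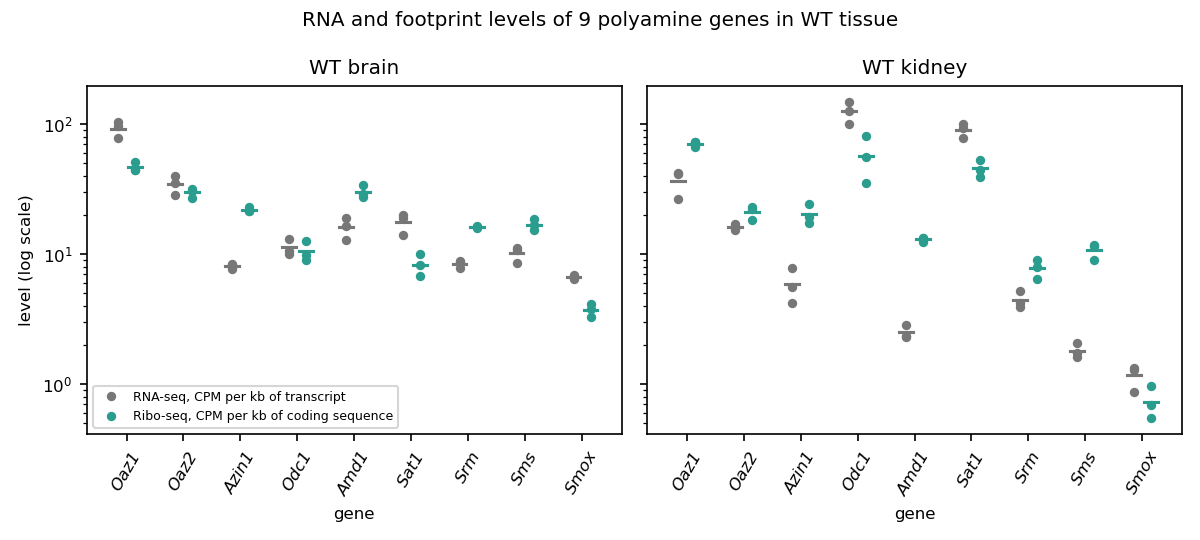
Levels of the 9 polyamine genes in the WT libraries of brain and kidney, as CPM per kilobase on a log axis, with a point for each library, a bar at each mean, and separate colours for RNA-seq (per transcript length) and Ribo-seq (per coding length). Odc1 and Sat1 lead the kidney RNA, and Oaz1 has the highest mean footprint level in both tissues.

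Per kilobase of transcript, the order of RNA levels in WT kidney was Odc1 (125 ± 23.6 CPM per kilobase, SD, n = 3), Sat1 (90.3 ± 10.9), Oaz1 (36.5 ± 8.61), Oaz2 (16.1 ± 0.90), Azin1 (5.85 ± 1.79), Srm (4.42 ± 0.66), Amd1 (2.50 ± 0.29), Sms (1.80 ± 0.23) and Smox (1.17 ± 0.26). Of neighbours in this order, Azin1 and Srm overlapped. Per kilobase of coding sequence, the order of footprints in WT kidney was Oaz1 (70.2 ± 3.68), Odc1 (56.9 ± 22.6), Sat1 (45.6 ± 6.93), Oaz2 (21.1 ± 2.46), Azin1 (20.3 ± 3.52), Amd1 (13.0 ± 0.60), Sms (10.7 ± 1.56), Srm (7.77 ± 1.32) and Smox (0.73 ± 0.21). Here Oaz1 and Odc1, Odc1 and Sat1, Oaz2 and Azin1, and Sms and Srm overlapped. In brain, Oaz1 led both RNA (92.2 ± 13.0) and footprints (46.6 ± 3.77), and Smox was last in both (6.64 ± 0.21 and 3.71 ± 0.43). Between them in the brain footprint order, Amd1 overlapped Oaz2, Sms overlapped Srm and Odc1 overlapped Sat1. In the brain RNA order after Oaz1 and Oaz2, each neighbouring pair from Sat1 through Amd1, Odc1, Sms and Srm to Azin1 overlapped. Reads over the leader are counted with the transcript, so the footprint levels of all genes, Azin1 among them, include such reads. These levels are divided by the coding length alone.

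Several members sat at the low end of all genes in footprints per kilobase relative to RNA per kilobase. In WT kidney, 2.9% of 11727 genes lay below Odc1, 4.1% below Sat1 and 6.7% below Smox. In WT brain, 3.4% of 12650 genes lay below Sat1, 4.0% below Oaz1, 4.9% below Smox, 12.5% below Oaz2 and 14.1% below Odc1. At the other end, 90.8% of genes lay below Amd1 and 92.6% below Sms in kidney, where in brain the shares were 45.1% and 37.5%. Both have reads shared with other genes over the whole coding sequence. In WT kidney Amd2, counted apart from Amd1, had 12.5 CPM of footprints but 0.16 CPM of RNA, beside 8.0 CPM of Amd1 RNA. In WT brain the RNA was 35.75 CPM for Amd2 and 51.4 for Amd1. The RNA counts of these copies thus stood in unlike relation in the tissues. The part of this in the kidney and brain values of Amd1 was not tested.

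The knockout comparison asks whether loss of RPL41 changes RNA, footprints or their ratio for these genes. Of all members and assays, the Amd1 footprints in kidney alone passed the test, and they rose. Amd1, S-adenosylmethionine decarboxylase, had 13.3, 12.3 and 13.4 CPM of footprints in WT kidney and 17.5, 16.2 and 22.6 in KO kidney. All KO libraries lay above all WT libraries, with a log2 difference of 0.54 (SE 0.13, adjusted p = 0.0291, edgeR). This 1 of 9 members stands beside 7.76% of all transcripts called in kidney Ribo-seq, 4.75% higher and 3.01% lower. These are 3573 transcripts higher and 2265 lower, which turned to 1531 and 2543 with library totals as the scaling. The Amd1 call was lost without any of 4 libraries: adjusted p was 0.0760 without WT library 1, 0.0791 without WT library 2, 0.0554 without KO library 2 and 0.151 without KO library 3, with log2 differences between 0.365 and 0.645 over all 6 such fits. It was also lost with library totals as the scaling (adjusted p = 0.0661) and with the counts of a gene's transcripts summed (adjusted p just above the threshold).

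The Amd1 footprints were 27.6, 33.7 and 28.9 CPM in WT brain and 34.0, 44.8 and 50.1 in KO brain. Here too the genotypes did not overlap (log2 difference 0.52, SE 0.14, adjusted p = 0.233, edgeR), and the test was not passed. With DESeq2 the adjusted p was 0.0316. In kidney disome-seq Amd1 had 8.99, 9.52 and 9.06 CPM in WT and 13.9, 11.8 and 13.6 in KO, from 10 to 28 reads per WT library, again without overlap (0.51, SE 0.27, adjusted p = 0.501). The RNA of Amd1 was 9.07, 7.55 and 7.37 CPM in WT kidney and 8.51, 6.39 and 7.88 in KO kidney (-0.07, SE 0.19), and 51.4 against 53.0 CPM on average in brain (0.04, SE 0.17), with overlap in both tissues. Relative to RNA, Amd1 footprints differed by 0.61 in kidney (SE 0.24, unadjusted p = 0.0239, adjusted p = 0.198) and 0.49 in brain (SE 0.24, adjusted p = 0.880, edgeR's assay-by-genotype term).

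Azin1, the antizyme inhibitor, had higher footprint levels in the KO libraries of both tissues, without passing the test. They were 23.4, 25.7 and 32.5 CPM in WT kidney and 36.3, 34.2 and 37.6 in KO kidney (log2 difference 0.41, SE 0.13, adjusted p = 0.0626, edgeR). Without WT kidney library 3, the adjusted p of Azin1 was 0.0115. In brain they were 28.7, 30.7 and 28.5 CPM in WT and 32.5, 40.3 and 42.8 in KO (0.40, SE 0.12, adjusted p = 0.250). The genotypes did not overlap in either tissue. Azin1 RNA was 27.2, 20.5 and 37.8 CPM in WT kidney and 33.5, 30.6 and 29.0 in KO kidney (0.12, SE 0.22), and 39.2 against 42.8 CPM on average in brain (0.13, SE 0.10), where the KO libraries all lay above the WT libraries.

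**Figure D2:**
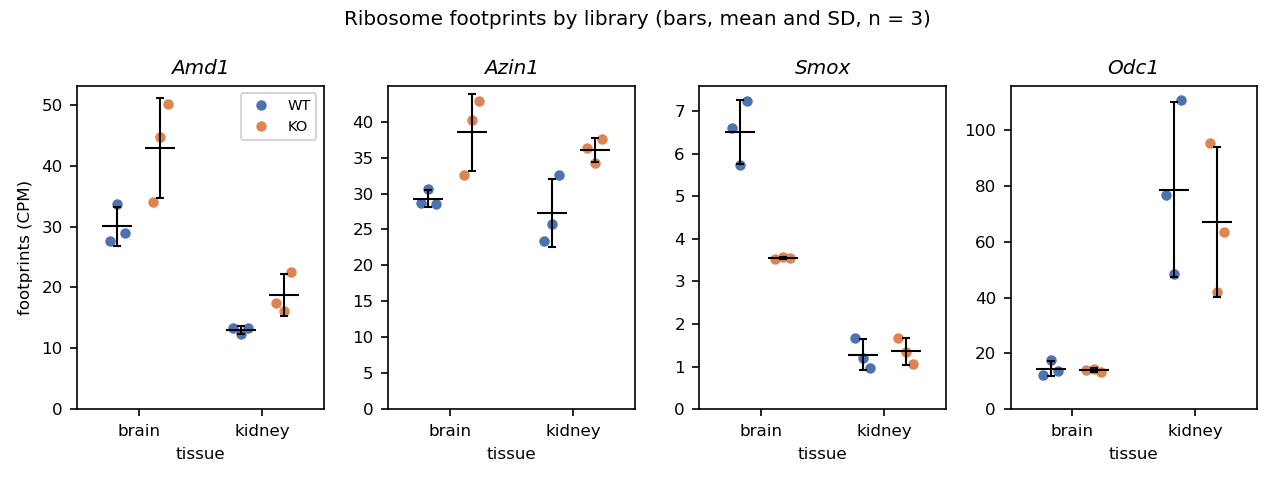
Ribo-seq CPM of Amd1, Azin1, Smox and Odc1 in each library, by tissue and genotype, with bars for the mean and SD of 3 libraries. The KO libraries of Amd1 and Azin1 all lie above the WT libraries in both tissues, those of Smox all lie below in brain alone, and those of Odc1 overlap.

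Smox showed the largest difference of any member in brain footprints. Smox had 6.60, 5.73 and 7.23 CPM in WT brain and 3.53, 3.58 and 3.56 in KO brain, a log2 difference of -0.89 (SE 0.14, unadjusted p = 2.76e-05, adjusted p = 0.0679, edgeR). All KO libraries lay below all WT libraries, from 53 to 161 reads per WT library, and the adjusted test was not passed. Without the filter on low counts the adjusted p was 0.000683. Smox RNA in brain was 13.9, 14.9 and 14.4 CPM in WT and 9.76, 13.0 and 13.5 in KO, also without overlap (-0.25, SE 0.14, adjusted p = 0.898). Blood markers moved in the same direction in these libraries: Hba-a1, Hbb-bs and Alas2 summed to 324 to 936 CPM in WT and 177 to 225 CPM in KO brain Ribo-seq, and to 381 to 1306 and 205 to 440 CPM in brain RNA-seq. Their part in the Smox result was not tested. In kidney Smox had 1.68, 1.21 and 0.955 CPM of footprints in WT and 1.68, 1.33 and 1.06 in KO (-0.08, SE 0.27). The kidney response of Smox footprints exceeded the brain response by 0.82 on the log2 scale (SE 0.28, unadjusted p = 0.0100, adjusted p = 0.458).

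In brain Ribo-seq 0 of 9 members passed, beside 0.0345% of all transcripts tested (0.00123% higher, 0.0333% lower), although 12.6% of transcripts had an unadjusted p below the threshold. The KO libraries lay entirely above the WT libraries for 3 members (Oaz2, Azin1, Amd1) and entirely below for 1 (Smox), beside 9.4% and 8.7% of all transcripts. In kidney Ribo-seq they lay above for 2 (Azin1, Amd1) and below for 0, beside 15.5% and 14.3%. The median log2 difference over the members was 0.04 in kidney and 0.11 in brain footprints, beside -0.01 over all transcripts in each tissue.

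**Figure D3:**
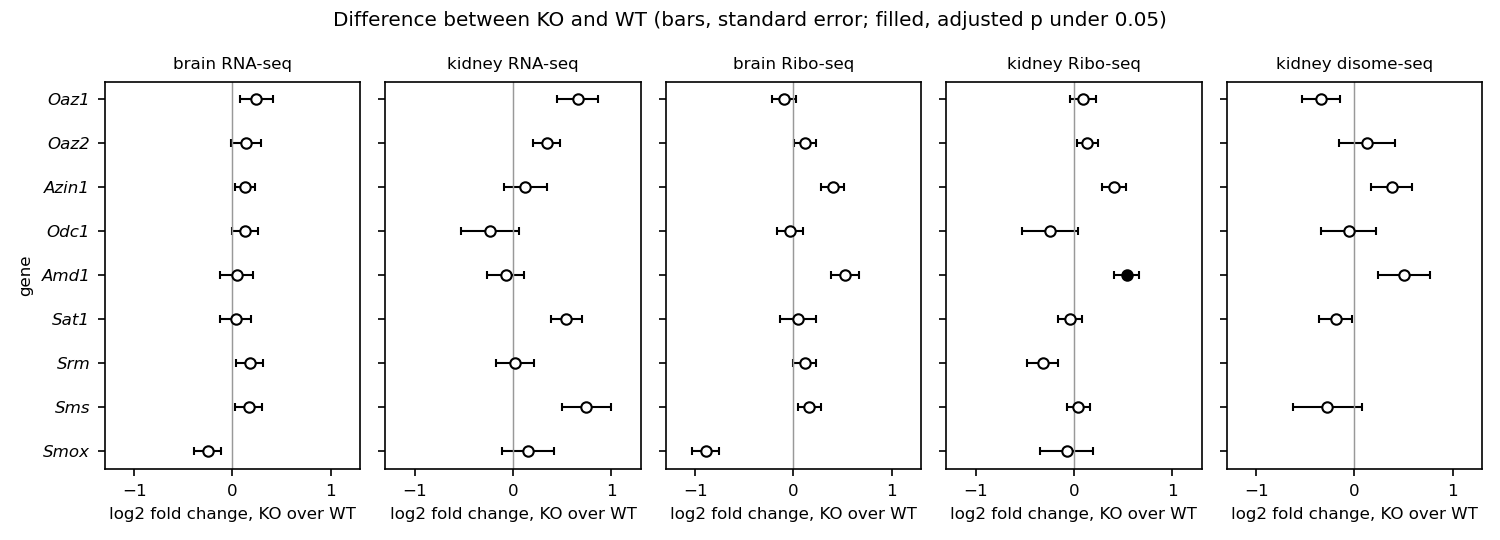
Log2 difference of KO over WT for each polyamine gene, with bars of 1 standard error, in a panel for each tissue and assay, and a filled point where the adjusted test was passed. Amd1 in kidney Ribo-seq alone is filled, and Srm and Smox have no point in disome-seq.

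The footprint levels of the antizymes Oaz1 and Oaz2 overlapped between the genotypes in kidney. Oaz1 had 49.2, 44.9 and 49.3 CPM in WT kidney and 63.1, 47.2 and 44.0 in KO kidney (log2 difference 0.10, SE 0.13), and 30.2, 34.7 and 30.3 against 33.4, 29.4 and 26.0 CPM in brain (-0.10, SE 0.12). Oaz2 had 12.6, 10.3 and 12.9 CPM in WT kidney and 13.5, 13.3 and 12.8 in KO kidney (0.14, SE 0.11). In brain Oaz2 had 15.2, 17.4 and 18.0 against 18.5, 18.4 and 18.1 CPM (0.12, SE 0.11), where the KO libraries lay just above the WT libraries.

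The place of the antizyme footprints along the mRNA differed by genotype more than their sum. Listed isoforms cover different stretches of each mRNA, and the reads of an isoform that begins after the frameshift site were divided by reads from elsewhere on the same mRNA. For Oaz1 the stretch after the site was nucleotides 498 to 1039 of the transcript, coding sequence and trailer. The divisor was the reads of an isoform over nucleotides 1 to 711 less those of another over 221 to 731. It stands for the reads before nucleotide 221, ahead of the site. The later ends of these isoforms differ, and they hold 3 and 27 nucleotides outside the transcript, so the difference is approximate. For Oaz2 the stretch was nucleotides 384 to 1060, and its isoform also holds 188 nucleotides outside the transcript, whose reads are included. The divisor was the reads of the transcript less those of this isoform. It stands for the rest of the transcript, which holds the leader and the site but also the later trailer. These ratios were chosen after the data were seen, share reads with the totals, and are given without a test.

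The Oaz1 ratio of footprints after to before the site was 0.292, 0.202 and 0.275 in WT brain and 0.421, 0.307 and 0.407 in KO brain. In kidney the Oaz1 ratio was 0.322, 0.355 and 0.298 in WT and 0.486, 0.507 and 0.377 in KO. The KO libraries lay above the WT libraries in both tissues, from 38 or more reads in each stretch and library, and the mean log2 ratio differed by 0.57 in brain and 0.48 in kidney. For Oaz2 the ratio of the stretch after the site to the rest of the transcript was 1.33, 0.963 and 1.28 in WT brain and 1.41, 1.43 and 1.52 in KO brain, and 0.880, 0.604 and 0.778 in WT kidney and 1.40, 1.17 and 1.17 in KO kidney. These too did not overlap, with differences of 0.30 in brain and 0.74 in kidney on the log2 scale.

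Footprints of many genes leaned to isoforms of the later part of the coding sequence in the KO libraries. Over genes whose isoforms allow it, the ratio of footprints after over before the midpoint of the coding sequence differed between KO and WT by a median of 0.07 on the log2 scale in brain (2199 genes) and 0.14 in kidney (2013 genes), and the KO libraries lay entirely above the WT libraries for 11.1% and 18.5% of these genes and entirely below for 3.46% and 2.53%. This ratio uses all reads of isoforms picked by where they overlap the coding sequence. Such isoforms can also hold leader, trailer or intron. The stretches differ from those of the antizymes, so the sizes are not comparable. In RNA-seq the antizyme ratios overlapped between the genotypes in both tissues but were far apart on average in kidney: the Oaz1 ratio was 10.1 ± 4.60 in WT and 41.9 ± 28.4 in KO (SD, n = 3, log2 difference 1.84) and the Oaz2 ratio 0.300 ± 0.108 and 0.173 ± 0.102 (-0.88). In brain RNA-seq the log2 differences were 0.39 for Oaz1 and -0.25 for Oaz2. The RNA differences of Oaz1 have the sign of its footprint differences, those of Oaz2 the opposite sign, and the part of RNA coverage in the footprint ratios was not tested. In disome-seq the stretches after the site held as few as 1 read, and the ratios overlapped.

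**Figure D4:**
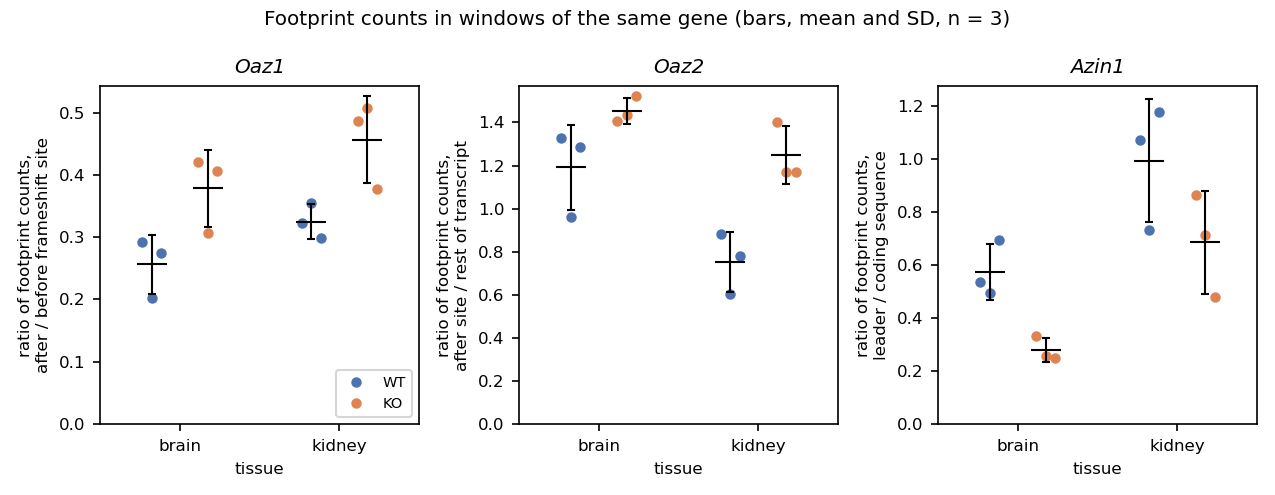
Ratio of Ribo-seq reads in 2 stretches of the same mRNA for each library: after over before the frameshift site for Oaz1, after the site over the rest of the transcript for Oaz2, and leader over coding sequence for Azin1, by tissue and genotype, with bars for the mean and SD of 3 libraries. The antizyme ratios are higher in every KO library of both tissues, and the Azin1 ratio is lower in every KO library of brain.

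Azin1 footprints over the leader were set against those over part of the coding sequence. A listed isoform of Azin1 covers nucleotides 17 to 495 of the leader, including the 7-codon frame shown above, and 143 nucleotides outside the transcript. Its reads were divided by those of an isoform within the coding sequence (nucleotides 800 to 1456). This Azin1 ratio was 0.536, 0.495 and 0.694 in WT brain and 0.331, 0.259 and 0.248 in KO brain, with no overlap and a log2 difference of -1.04. In kidney it was 1.07, 0.735 and 1.18 in WT and 0.866, 0.714 and 0.479 in KO, with overlap and a log2 difference of -0.55. Over all genes with such a pair of isoforms the median difference was -0.15 in brain (45 genes) and -0.31 in kidney (38 genes), the KO libraries lay entirely below for 15.6% and 28.9%, and 4.44% of the genes in brain and 26.3% in kidney had a lower value than Azin1. Total Azin1 footprints in KO brain were 1.32 times those in WT brain. In disome-seq the Azin1 ratio was 1.54, 1.18 and 1.31 in WT and 0.878, 1.15 and 0.389 in KO, from 7 or more reads per stretch.

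Odc1 varied between libraries of the same genotype more than between genotypes in kidney. Odc1 RNA was 280, 222 and 326 CPM in WT and 344, 149 and 210 in KO. Its footprints were 76.9, 48.4 and 111 CPM in WT and 95.6, 42.1 and 63.7 in KO, and its disomes 52.2, 33.0 and 68.9 CPM in WT and 70.6, 24.2 and 44.8 in KO. The order of the libraries by number was the same in all 3 assays, library 3 leading and 2 last in WT, and library 1 leading and 2 last in KO. The genotype difference was -0.24 (SE 0.30) for RNA, -0.24 (SE 0.28) for footprints and -0.06 (SE 0.28) for disomes. In brain Odc1 RNA averaged 24.8 CPM in WT and 27.0 in KO and its footprints 14.5 and 13.9 CPM, with overlap in both.

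In kidney RNA-seq 4 members had higher RNA in KO at an unadjusted p below the threshold, and 0 of 9 passed the adjusted test, beside 0.00992% of all transcripts tested and 16.8% at an unadjusted p. Sat1 had 88.9, 83.7 and 70.1 CPM in WT and 102, 129 and 123 in KO (log2 difference 0.54, SE 0.16, adjusted p = 0.292, edgeR), without overlap. Sms, spermine synthase, had 7.62, 6.39 and 6.01 CPM in WT and 7.31, 13.0 and 13.3 in KO (0.75, SE 0.25, adjusted p = 0.292), and KO library 1 lay within the WT range. Oaz1 had 43.6, 43.0 and 27.7 CPM in WT and 50.0, 64.6 and 66.1 in KO (0.66, SE 0.21, adjusted p = 0.292), and Oaz2 31.3, 29.7 and 28.0 in WT and 35.5, 41.9 and 35.6 in KO (0.34, SE 0.14, adjusted p = 0.292), both without overlap. That 3 members (Oaz1, Oaz2, Sat1) lay entirely above WT stands beside 10.1% of all transcripts.

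These kidney RNA differences leaned on KO libraries 2 and 3, the kidney libraries with the highest median ratio of later to earlier isoform reads. Without both, the log2 differences were 0.39 for Oaz1, 0.26 for Oaz2, 0.33 for Sat1 and 0.13 for Sms, and without KO library 1 instead Oaz1 (0.78, adjusted p = 0.0358), Sat1 (0.64, adjusted p = 0.0273) and Sms (0.98, adjusted p = 0.0163) passed the test, in a fit that called 12466 of 73294 transcripts where the fit with all libraries called 7. The part of 3′ coverage in these values was not tested. Footprints of Sat1 were 21.0, 23.7 and 28.4 CPM in WT kidney and 24.9, 24.2 and 21.9 in KO (-0.04, SE 0.12), and those of Sms 12.6, 9.81 and 12.9 in WT and 12.2, 12.2 and 12.1 in KO (0.04, SE 0.12), both with overlap. Relative to RNA, footprints in kidney differed by -0.58 for Sat1 (SE 0.22, adjusted p = 0.185), -0.69 for Sms (SE 0.30, adjusted p = 0.237) and -0.55 for Oaz1 (SE 0.28, adjusted p = 0.295), and without KO RNA-seq libraries 2 and 3 by -0.36, -0.07 and -0.27. Without KO RNA-seq library 1 instead, Sat1 (-0.66, adjusted p = 0.0471) and Sms (-0.92, adjusted p = 0.0144) passed, in a fit that called 16559 of 91865 transcripts.

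For translation efficiency 0 of 9 members passed in kidney and 0 of 9 in brain with edgeR, and 0% of all transcripts tested did in either tissue, with 19.4% and 4.85% at an unadjusted p. DESeq2 called none of the 9 in either tissue. In brain, Smox alone of the members had an unadjusted p below the threshold (-0.62, SE 0.21, unadjusted p = 0.0109, adjusted p = 0.880). With another model (RiboDiff), the paper reports that translation efficiency changed significantly for a substantial number of transcripts in kidney and in brain. That model was not run here. In brain RNA-seq 0 of 9 members passed, beside 0.0134% of all transcripts tested and 3.46% at an unadjusted p, where no member was below the threshold. Azin1 lay entirely above and Smox entirely below WT there, beside 5.08% and 4.43% of all transcripts.

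Srm, spermidine synthase, had 7.20, 5.78 and 8.15 CPM of footprints in WT kidney and 4.35, 5.76 and 6.23 in KO kidney (log2 difference -0.32, SE 0.16, adjusted p = 0.218, edgeR), and 14.4, 14.5 and 14.9 against 17.5, 15.5 and 14.4 CPM in brain (0.11, SE 0.11). The genotypes overlapped in both tissues. The kidney response of Srm footprints was below the brain response by a log2 difference of -0.43 (SE 0.20, unadjusted p = 0.0434, adjusted p = 0.627). Footprints of Sat1 in brain were 4.37, 5.30 and 3.59 CPM in WT and 4.10, 3.86 and 5.43 in KO (0.04, SE 0.19), and those of Sms 16.7, 20.3 and 18.3 in WT and 20.0, 19.1 and 22.5 in KO (0.16, SE 0.12), also with overlap. The kidney and brain responses to the knockout differed for 0 of 9 members in RNA-seq, beside 0.00108% of all transcripts tested, and for 0 of 9 in Ribo-seq, beside 0.0801% (0.0338% with the kidney response above and 0.0462% with it below), with 8.13% and 7.69% at an unadjusted p. For Amd1 and Azin1, the members with higher footprints in both tissues, the kidney minus brain difference of the responses was 0.02 (SE 0.21) and 0.01 (SE 0.18).

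Disomes were most abundant, relative to single-ribosome footprints, on Sat1 and Oaz1. Dividing the disome-seq CPM of a library by the Ribo-seq CPM averaged over the libraries of the same genotype gave a ratio of 2.74, 2.68 and 3.24 for Sat1 in WT kidney, above that of 95.0% of 11775 genes, whose median was 0.870. For Oaz1 the ratio was 1.71, 1.37 and 1.499 in WT, above that of 80.7% of genes, from 79 to 236 disome reads per library. Amd1 (0.692, 0.733 and 0.698) and Odc1 (0.663, 0.419 and 0.875) had lower ratios, close to or below the median. In KO the ratio was 2.39, 2.72 and 2.64 for Sat1 and 0.803, 1.38 and 1.21 for Oaz1, both overlapping WT.

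**Figure D5:**
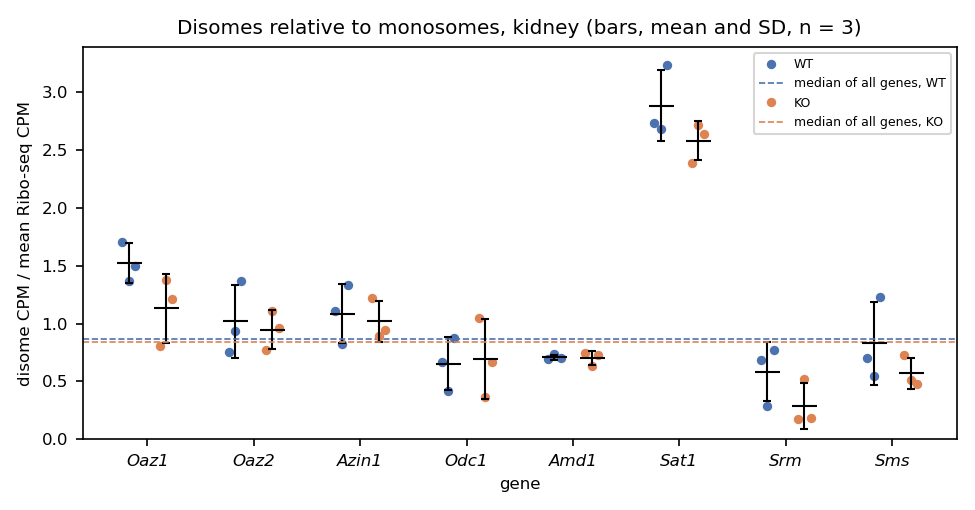
Ratio of disome-seq CPM in each kidney library to Ribo-seq CPM averaged over the same genotype, for 8 polyamine genes (Smox had too few reads), with bars for the mean and SD of 3 libraries and dashed lines at the median of all genes. Sat1 lies highest in both genotypes, and Oaz1 lies next in WT.

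In the knockout comparison of disome levels, 0 of the 7 members that could be tested passed (edgeR, beside 0.201% of all transcripts, 0.0691% higher and 0.132% lower, and 10.8% at an unadjusted p, where no member was below the threshold). Srm and Smox had too few disome reads for the test. Sat1 disomes were 66.7, 65.3 and 78.9 CPM in WT and 56.6, 64.3 and 62.4 in KO, entirely lower (log2 difference -0.19, SE 0.17, adjusted p = 0.720). Marker sums did not overlap either in these libraries, at 148 to 162 CPM in WT and 81.7 to 115 in KO for blood, 1901 to 2304 and 2612 to 2950 for kidney, and 44.9 to 66.0 and 70.5 to 103 for immune cells, and their part in the member values was not tested. Disomes of Oaz1 were 81.6, 65.3 and 71.6 in WT and 41.3, 71.0 and 62.4 in KO, with overlap (-0.34, SE 0.19, adjusted p = 0.530). Amd1 above and Sat1 below stand beside 8.07% and 8.9% of all transcripts whose libraries did not overlap. Relative to Ribo-seq 0 of 9 members passed, beside 0% of all transcripts and 5.91% at an unadjusted p, and Oaz1 had a difference of -0.42 (SE 0.24, adjusted p = 0.869).

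Of 27 other genes of polyamine supply, salvage, transport and use, 2 of 22 tested passed the knockout comparison in kidney Ribo-seq, where 7.76% of all transcripts did. Amd2, the near-identical copy of Amd1 whose footprint reads are largely the same, was higher (0.50, SE 0.13, adjusted p = 0.0383, edgeR). Slc18b1, a vesicular polyamine transporter, was lower (-0.62, SE 0.16, adjusted p = 0.0374, edgeR). In the other knockout comparisons none of the 27 passed, from 12 tested in disome-seq to 27 in brain translation efficiency. By single assay, the widest difference was 1.73 for Amd2 in kidney RNA (adjusted p = 0.300, edgeR), from 0.16 to 0.55 CPM on average. In brain it was 0.48 for Paox, a polyamine oxidase, in RNA (adjusted p = 0.898) and -0.995 for Arg1, an arginase, in footprints (adjusted p = 0.409). Arg1 had 4.40 ± 2.57 CPM of footprints but 0.12 CPM of RNA in WT brain (SD, n = 3). In disomes the widest was -0.81 for Mtap, of methylthioadenosine salvage (adjusted p = 0.327). In the ratio comparisons the widest was -1.19 in kidney translation efficiency, 1.91 in brain translation efficiency and 1.65 for disomes relative to Ribo-seq. Between WT tissues 10 of 24 passed as higher and 7 as lower in kidney RNA, and 14 of 25 and 10 of 25 in footprints. Over all transcripts 28.3% were higher and 35.8% lower in kidney RNA, and 35% and 35.8% in footprints. Slc22a2, an organic cation transporter, was among those higher in kidney (107 CPM of RNA in kidney and 0.24 in brain, log2 difference 9.05, SE 0.25). In translation efficiency 3 of 26 were higher and 4 lower in kidney, beside 11.7% and 8.09% of all transcripts.

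Over the 30 libraries, with the mean of each tissue and assay removed, the genes most like Oaz1 among 4086 were Gm20538, Anapc13 and Stard10 (Pearson's r of log2 CPM 0.872, 0.851 and 0.849). For Odc1 they were Psmb7, Hebp1 and Hsd17b11 (0.802, 0.782 and 0.781), and for Azin1 Ivd, Lonp2 and Acox3 (0.845, 0.827 and 0.816). The libraries share tissues, genotype and depth, so these values are descriptions.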

How the data were processed

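The authors deposited raw counts of reads per mouse transcript for 30 libraries (RNA-seq and Ribo-seq of kidney and brain, disome-seq of kidney, WT and Rpl41 KO, 3 libraries each). Per the labels and the study's methods, adaptors were trimmed with cutadapt, ribosomal RNA reads were removed, and reads were aligned with STAR to the transcriptome and to mm10, with multimapping reads kept, and counted with featureCounts (Subread). Versions are not given in the sources used here. Reads shared by isoforms or gene copies therefore count for each. A human table was not used: its 28 value columns carry titles of mouse samples.

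Transcripts were matched to GENCODE M21 (141374 of 142604). Each comparison was fitted over the whole table with edgeR 4.0.16 (filterByExpr, TMM scaling, quasi-likelihood F-test) in R 4.3.3, p-values adjusted over the whole set of tested transcripts by the Benjamini-Hochberg method and a threshold of 0.05. Translation efficiency and disomes relative to Ribo-seq were the interaction of assay and genotype (or tissue) in a model of 12 libraries, with TMM within each assay, and differences between tissues the interaction of tissue and genotype. The SE is the log2 difference over the square root of F. CPM are TMM-scaled within each tissue and assay, and levels between genes are per kilobase of transcript (RNA-seq) or coding sequence (Ribo-seq, disome-seq). The scripts were tested on simulated data. No 2 columns of the table were identical.

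The members, the 27 pathway genes, the marker lists and the tests were chosen with earlier results of these data known. Genes that could be named were all members, pathway genes past the threshold or among the 3 with the largest difference in a comparison, and the 3 genes most like Oaz1, Odc1 and Azin1. Most pathway genes are given as counts over the list, and 1 named by the rule is not reported here. Markers summed were those of kidney, brain, blood, immune cells, acinar pancreas and fat. The ratios of stretches within a gene (stretches of at least 100 bases, and for the background at least 10 reads in every library), the fits without KO kidney RNA-seq libraries 2 and 3, and the limit of an unadjusted p of 0.1 below which a member was followed under the alternatives were chosen after the data were seen.

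Labels number the libraries. Same-numbered libraries deviated together, with every correlation of their deviations over 0.1, between WT and KO in disome-seq (0.121, 0.207 and 0.121), between RNA-seq and Ribo-seq of kidney (0.108 to 0.236) and of WT brain (0.167, 0.398 and 0.249), between KO brain and KO kidney in RNA-seq (0.275, 0.119 and 0.140) and between Ribo-seq and disome-seq (0.139 to 0.385), but not between RNA-seq and Ribo-seq of KO brain, in the other pairs of tissues, or between WT and KO in RNA-seq or Ribo-seq of either tissue. Alternatives were DESeq2 1.42.0, library totals in place of TMM, 2 other filters, counts summed per gene, 1 transcript per gene, a replicate block, and each library left out.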

Additional observations from a re-analysis of the deposited data

How the results depend on the processing

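Of 45 member results with an unadjusted p under 0.1, followed as 691 values under the alternatives, 662 kept their direction and their side of the threshold, 15 fell short of it, 12 newly passed it and 2 turned their direction. The difference of Oaz2 in kidney RNA-seq was -0.004 with counts summed per gene, and that of Sms in the tissue difference of the RNA-seq response was -0.024 without KO kidney RNA-seq libraries 2 and 3. Of the other 70 member results, 40 changed sign under at least 1 alternative. The number of members called in kidney Ribo-seq was 0 with library totals alone or counts summed per gene and 2 with no filter beyond 1 count in any library (Azin1 added), and it ranged from 0 to 2 when a library was left out. DESeq2 called as many members as edgeR in every knockout comparison but brain Ribo-seq, where it called 1 (Amd1), and there the count was 2 with no filter (Amd1 and Smox). Leaving out KO kidney RNA-seq library 1 gave the highest counts elsewhere: the range was 0 to 3 for kidney RNA-seq, 0 to 2 for kidney translation efficiency and 0 to 1 for the tissue difference of the RNA-seq response (Sms, 0.81, adjusted p = 0.0499). The other 195 of 208 such counts were the same. The replicate block changed no member call: 1 member stayed called in kidney Ribo-seq, 0 in the other knockout comparisons, and 8, 8 and 4 between the WT tissues in RNA-seq, Ribo-seq and translation efficiency. Over all transcripts the block moved the calls from 28 to 80 in brain Ribo-seq, from 70 to 252 in disome-seq and from 0 to 204 for disomes relative to single footprints. DESeq2 called 4381 transcripts in kidney translation efficiency and 17 in brain, where edgeR called 0, 465 in kidney RNA-seq (edgeR 7), 3497 in kidney Ribo-seq (edgeR 5838), 388 in brain Ribo-seq (edgeR 28), 123 for the tissue difference in RNA-seq (edgeR 1) and 233 in Ribo-seq (edgeR 71). Without the low-count filter edgeR called 9936 in kidney Ribo-seq, 1573 in brain Ribo-seq, 278 in disome-seq and 487 for the tissue difference in Ribo-seq. Left-out libraries moved kidney RNA-seq between 7 and 12466 calls, kidney Ribo-seq between 285 and 5843, kidney translation efficiency between 0 and 16559 and the tissue difference in RNA-seq between 0 and 5655, with the highest of all but kidney Ribo-seq without KO kidney RNA-seq library 1. Library totals as the scaling moved the median of all transcripts from -0.03 to -0.19 in kidney RNA-seq and from -0.20 to -0.45 between WT tissues in RNA-seq. With 1187636 to 3018963 disome reads, differences in Srm and Smox disomes were not detectable at this depth. The causes of these changes were not tested.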

Other observations

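Marker levels other than those given above moved with genotype in the libraries that gave the member values. In kidney Ribo-seq the 6 acinar pancreas markers (Prss2, Cela1, Cpa1, Cel, Pnlip, Ctrb1) summed to 11.6 to 130 CPM in WT and 4.25 to 7.74 CPM in KO. All of them but Cela1 had no reads in kidney RNA-seq of either genotype. In brain Ribo-seq the acinar sums overlapped, at 0.808 to 45.7 CPM in WT and 0.608 to 1.93 CPM in KO. The 6 kidney markers summed in kidney Ribo-seq to 3660 to 4222 CPM in WT and 4977 to 5839 CPM in KO. The 4 immune markers summed to 75.3 to 109 CPM in WT and 132 to 153 CPM in KO in kidney Ribo-seq, and the 3 fat markers overlapped, at 40.5 to 66.5 and 43.6 to 56.5 CPM. In brain Ribo-seq the immune markers overlapped, at 12.1 to 15.2 CPM in WT and 11.4 to 14.7 CPM in KO. The part of these markers in the member values was not tested.

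RNA-seq coverage along the mRNA also differed among brain libraries. The median log2 isoform ratio described above was 1.65, 1.52 and 1.05 in WT and 1.18, 2.04 and 1.98 in KO brain RNA-seq. In Ribo-seq the same ratio was -0.13, -0.10 and -0.10 in WT brain, -0.05, -0.02 and -0.03 in KO brain, -0.19, -0.21 and -0.22 in WT kidney and 0.03, -0.15 and -0.10 in KO kidney. In the Ribo-seq of both tissues the lowest KO library exceeded the highest WT library.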
